A study of Mus musculus with 12 samples.

Results

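Tetraspanins are small membrane proteins that cross the bilayer several times and gather integrins, immunoglobulin-domain proteins and proteases into patches of the cell surface. Blood cells carry many of them. Some are found on nearly all leukocytes, others are best known from platelets or lymphocytes, and the TspanC8 subgroup escorts the shedding protease ADAM10 to the surface. The genes described here are Cd9, Cd37, Cd53, Cd63, Cd81, Cd82, Cd151, Tspan8, Tspan32 and Tspan33, which are 10 of 32 mouse tetraspanin genes listed for this report. Every probe set annotated with 1 of these symbols was taken, which gave 25 of the 45037 probe sets and 9 of the 10 genes. No probe set in the annotation used here carried Cd63, which encodes a tetraspanin of late endosomes and granules, so it was not analysed here.

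RNA of 4 sorted bone marrow populations was hybridised to 12 Affymetrix mouse arrays, 3 a population. The donors were female C57BL/6 mice aged 4 to 6 weeks. All 4 populations were lineage-negative, CD117+ and Sca-1-. Granulocyte-monocyte progenitors (GMP) were CD34+, CD16/32+ and CD27+, and the CD27+ fraction of common myeloid progenitors (CD27+ CMP) was CD34+, CD16/32- and CD27+. Megakaryocyte-erythrocyte progenitors (MEP) were CD34-, CD16/32- and CD27-, and the CD27- fraction of common myeloid progenitors (CD27- CMP) was CD34+, CD16/32- and CD27-. CD27 belongs to the TNF receptor superfamily, and no tetraspanin was used in the sort. The labels call the arrays biological replicates without saying whether animals were pooled, so errors and p-values measure the spread between these arrays, which may be partly technical.

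The values are log2 signals centred on the median of the 12 arrays of each probe set, so a value of 0 is that median and not an absence of RNA. They can be compared between populations for 1 probe set, but not between genes. A gene with several probe sets is described first by the one with the largest standard deviation (SD) over the 12 arrays. The 10 genes were selected on their signals in these same 4 populations, with the differences known. Their values are therefore given as a description with standard errors (SE) and no test, and only the other genes of the family and a list of partner genes were tested. Each SE comes from 1 fit of all 12 arrays, which pools the spread of a probe set over the 4 populations. It is therefore the same in every comparison and is not the spread of the 2 populations compared. These are bulk samples, so a lower signal can mean fewer cells with the RNA or less RNA per cell, and the 2 cannot be told apart.

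The labels were checked against marker genes as the mean centred log2 value over each list in each array. The 8 granulocyte-monocyte markers averaged 3.30 to 3.84 in GMP, 2.65 to 3.30 in CD27+ CMP, -4.43 to -2.89 in MEP and -3.14 to -2.50 in CD27- CMP. The 7 measured erythroid markers averaged -5.37 to -3.07 in GMP, -4.63 to -3.44 in CD27+ CMP, 3.31 to 3.39 in MEP and 3.04 to 3.36 in CD27- CMP. Cd34, the gene of a surface protein by which CD27- CMP were sorted as positive, read 3.03 ± 0.15 in GMP, 4.10 ± 0.10 in CD27+ CMP, -4.91 ± 1.71 in MEP and -3.22 ± 0.61 in CD27- CMP (SD, n = 3 each). The CD27- CMP arrays, labelled CD34+, overlapped with the CD34- MEP arrays for this gene and lay apart from CD27+ CMP. Of the B cell, T and NK cell, and endothelial and stromal markers, 4 in each list varied by less than 0.5 log2 over the arrays, Pax5, Cd3e and Cdh5 among them. The other measured members moved. Cd79b rose by 5.10 in CD27+ against CD27- CMP and by 6.01 in GMP against MEP, Nkg7 by 3.19 and 6.47, Pecam1 by 5.0 and 4.41 and Pdgfrb by 4.20 and 3.05, each with a limma adjusted p of 8.98e-05 or lower. Klrd1 rose by 2.02 in CD27+ CMP (limma adjusted p = 1.86e-08) and differed by -0.02 between GMP and MEP. The array means of these 3 lists lay between 0.39 and 0.98 in GMP and CD27+ CMP and between -0.84 and -0.23 in MEP and CD27- CMP. The 6 basophil and mast cell markers averaged 2.45 to 2.50 in GMP, 1.55 to 1.91 in CD27+ CMP, -2.03 to -1.76 in MEP and -1.69 to -1.61 in CD27- CMP. Gata2 went the other way, with a mean of -1.38 in GMP and 0.58 in CD27- CMP. Cpa3 was highest in CD27+ CMP, at 3.19 against 2.98 in GMP. Fcer1a read 1.00 in GMP replicate 2 and 0.02 and -0.03 in the other GMP arrays. On average these lists moved with the same split of the populations as the tetraspanins, and their part in the tetraspanin differences was not tested.

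The promoter windows of the 3 genes with the widest range, Cd53, Tspan8 and Tspan33, are printed because their signals separated the populations most clearly. Each runs from 250 bases before to 50 bases after the gene start (RefSeq, GRCm38.p6), 5′ to 3′ on the strand of the gene. Capitals mark matches on either strand to 3 motifs, which are AGATAA for GATA factors, GAGGAA for PU.1 and CCNCNCCC for KLF1. Where matches overlap, their capitals form a single run.
Cd53, chr3:106790100-106790399, minus strand: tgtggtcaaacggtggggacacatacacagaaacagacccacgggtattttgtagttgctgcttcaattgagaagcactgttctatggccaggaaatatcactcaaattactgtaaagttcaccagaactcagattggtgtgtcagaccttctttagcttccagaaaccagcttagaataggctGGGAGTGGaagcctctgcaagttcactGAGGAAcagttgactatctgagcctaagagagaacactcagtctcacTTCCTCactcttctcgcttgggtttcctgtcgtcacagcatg
Tspan8, chr10:115817034-115817333, plus strand: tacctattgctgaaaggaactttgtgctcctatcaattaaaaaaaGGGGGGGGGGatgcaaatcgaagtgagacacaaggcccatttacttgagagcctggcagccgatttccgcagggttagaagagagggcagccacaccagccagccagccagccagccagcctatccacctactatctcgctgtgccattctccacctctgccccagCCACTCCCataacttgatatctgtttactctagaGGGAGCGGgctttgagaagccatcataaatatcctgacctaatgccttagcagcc
Tspan33, chr6:29693964-29694263, plus strand: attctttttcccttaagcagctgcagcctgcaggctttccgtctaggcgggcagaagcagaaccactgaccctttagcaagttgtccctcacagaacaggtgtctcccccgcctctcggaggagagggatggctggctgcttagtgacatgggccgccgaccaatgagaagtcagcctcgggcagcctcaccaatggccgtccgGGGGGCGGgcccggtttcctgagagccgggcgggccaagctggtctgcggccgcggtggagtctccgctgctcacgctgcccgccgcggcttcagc
The Cd53 window held GAGGAA at -39 and 9, counted as the first base of the match relative to the gene start, and a CCNCNCCC match at -66. The Tspan8 window held 5 CCNCNCCC matches, of which those at -205 to -203 overlap, and the Tspan33 window held 1, at -46. Neither held AGATAA or GAGGAA. Over all 32851 windows of that length, GAGGAA was present in 28.3%, AGATAA in 11.2% and CCNCNCCC in 49.5%. All 10 genes had at least 1 window, 14 in all. GAGGAA was present in 5 of these 14 windows, AGATAA in 1 and CCNCNCCC in 11, which are the counts to set beside those shares. By gene, where several windows give more room for a match, GAGGAA was present in 5 (Cd37, Cd53, Cd63, Cd82 and Tspan32). AGATAA was present in Tspan32 alone and CCNCNCCC in 9 genes. A match is a description of the letters and not a binding site.

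Among the 9 measured genes, Cd53 and Cd37 read above 0 on average in GMP and CD27+ CMP, while Tspan8, Tspan33, Cd82, Cd81 and Tspan32 did so in MEP and CD27- CMP. Cd9 stood highest on average in GMP and lowest in MEP, and Cd151 overlapped in all 4 comparisons. The arrays of CD27+ and CD27- CMP did not overlap for 7 of the 9 genes. Among all 18193 genes 33.6% did not overlap. CD27+ CMP was higher in 2 of the 7 genes and lower in 5, beside 15.7% and 17.9% of all genes. Between GMP and MEP 2 were higher in GMP and 5 lower, beside 14.7% and 25.7% of all genes (40.4% in either direction). Between GMP and CD27+ CMP 1 gene was higher and 1 lower (8.17% and 7.49% of all genes, 15.7% in either direction), and between MEP and CD27- CMP 2 were higher and 1 lower (6.17% and 1.98%, 8.15% in either direction). Since the genes were chosen with these differences known, nothing is read from the shares. Over the 25 probe sets, 3 were higher and 14 lower without overlap in CD27+ than in CD27- CMP, beside 11.4% and 15.1% of all 45037 probe sets. In GMP 4 were higher and 13 lower than in MEP, beside 10.8% and 22%. Probe sets of the same gene are not independent, and the 14 include all 5 of Tspan8 and all 4 of Tspan33.

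**Figure D1:**
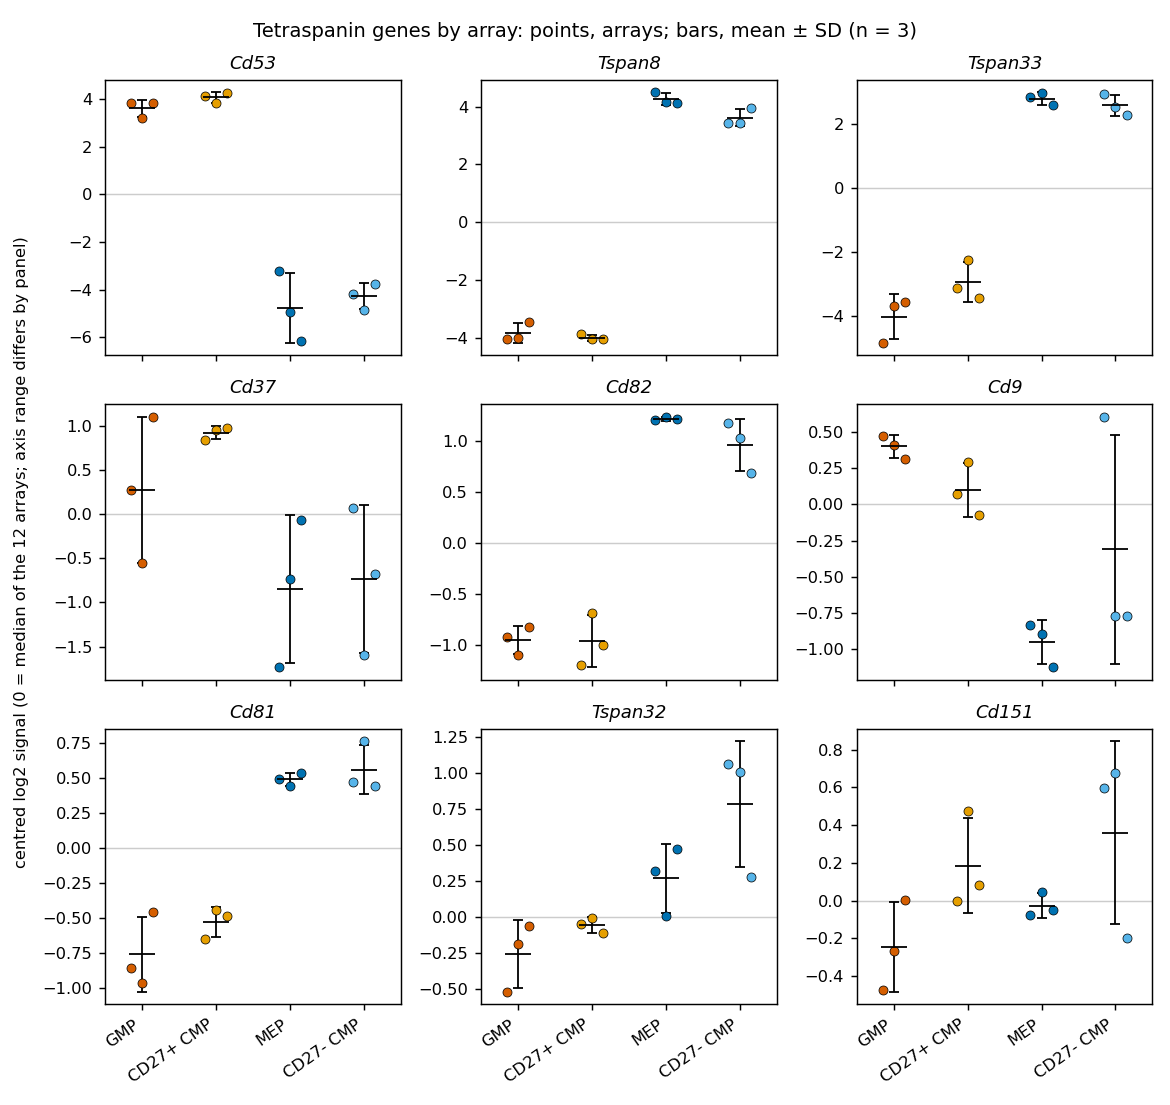
Centred log2 signal (0 is the median of the 12 arrays) of the probe set with the largest SD for each of the 9 measured tetraspanin genes, in GMP, CD27+ CMP, MEP and CD27- CMP. Points are arrays and bars give the mean ± SD (n = 3), with a separate axis range in each panel. Cd53 lay above 3 in all 6 GMP and CD27+ CMP arrays and below -3 in the other 6, Tspan8 and Tspan33 lay below -2 in all GMP and CD27+ CMP arrays and above 2 in the other 6, and Cd151 overlapped throughout.

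Cd53 and Cd37 encode tetraspanins of leukocytes, and both proteins act in lymphocyte migration and signalling. Cd53 read 3.82, 3.20 and 3.82 in GMP, 4.14, 3.81 and 4.23 in CD27+ CMP, -3.20, -4.92 and -6.13 in MEP and -4.19, -4.84 and -3.76 in CD27- CMP. The 6 arrays of GMP and CD27+ CMP all stood above the 6 of MEP and CD27- CMP, and within each of these pairs of populations the arrays overlapped. The log2 difference was 8.32 (SE 0.63) between CD27+ and CD27- CMP and 8.37 (SE 0.63) between GMP and MEP. The second Cd53 probe set had smaller differences, 3.27 (SE 0.43) and 2.73 (SE 0.43). It read 0.71 in GMP replicate 3, against 2.51 and 2.74 in the other GMP arrays, and lay between -0.88 and -0.71 in all MEP and CD27- CMP arrays.

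Cd37 varied far less and was uneven between replicates. It read 0.27, -0.56 and 1.10 in GMP, 0.83, 0.95 and 0.97 in CD27+ CMP, -1.73, -0.74 and -0.07 in MEP and 0.07, -1.60 and -0.68 in CD27- CMP. CD27+ CMP stood above CD27- CMP without overlap, with a log2 difference of 1.65 (SE 0.56), whereas 1 GMP array lay below the highest MEP array. The difference of 1.12 (SE 0.56) between GMP and MEP became 0.67 without MEP replicate 1 and 0.70 without GMP replicate 3. The second Cd37 probe set showed 0.02 (SE 0.20) between the CMP fractions and 0.63 (SE 0.20) between GMP and MEP.

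Tspan8 encodes a tetraspanin best known from epithelia and their tumours. Its signal was -4.05, -4.02 and -3.44 in GMP, -3.88, -4.06 and -4.07 in CD27+ CMP, 4.50, 4.15 and 4.12 in MEP and 3.44, 3.44 and 3.96 in CD27- CMP. All MEP arrays stood above all CD27- CMP arrays, and both stood far above GMP and CD27+ CMP, which overlapped. The log2 difference was -7.62 (SE 0.20) between CD27+ and CD27- CMP, -8.09 (SE 0.20) between GMP and MEP and 0.64 (SE 0.20) between MEP and CD27- CMP. The 5 Tspan8 probe sets differed widely in size. The other 4 gave -2.59, -1.49, -1.16 and -0.62 between the CMP fractions, in the same direction, and -2.96, -1.45, -0.65 and -0.04 between GMP and MEP. The higher reading in MEP than in CD27- CMP was not shared by every probe set, since 3 of the 4 gave -0.04, -0.82 and -0.57 and the fourth 0.44.

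Tspan33, also named Pen for penumbra, belongs to the TspanC8 subgroup and is known in mice for a part in erythropoiesis. The gene read -4.84, -3.70 and -3.55 in GMP, -3.12, -2.25 and -3.46 in CD27+ CMP, 2.82, 2.95 and 2.57 in MEP and 2.93, 2.52 and 2.25 in CD27- CMP. MEP and CD27- CMP overlapped at the top, and GMP lay below CD27+ CMP without overlap. The log2 difference was -5.51 (SE 0.39) between the CMP fractions, -6.81 (SE 0.39) between GMP and MEP and -1.09 (SE 0.39) between GMP and CD27+ CMP. Its 4 probe sets went the same way, from -5.51 to -3.24 between the CMP fractions and from -6.81 to -4.23 between GMP and MEP. Between MEP and CD27- CMP they ran from 0.21 to 0.63, all above 0, and for the probe set with 0.63 the arrays did not overlap. Between GMP and CD27+ CMP they ran from -1.09 to -0.41, and the arrays overlapped for the probe sets with -0.89 and -0.44.

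Cd82 encodes a tetraspanin first known as a suppressor of metastasis. The gene read -0.92, -1.10 and -0.82 in GMP, -1.19, -0.68 and -0.998 in CD27+ CMP, 1.20, 1.24 and 1.22 in MEP and 1.18, 1.03 and 0.68 in CD27- CMP. The 3 MEP arrays agreed within 0.05 log2 and stood just above the highest CD27- CMP array. The log2 difference was -1.92 (SE 0.15) between CD27+ and CD27- CMP and -2.16 (SE 0.15) between GMP and MEP. A second probe set stayed between -0.05 and 0.31 in all arrays and showed -0.10 (SE 0.08) and -0.16 (SE 0.08).

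Cd81 and Tspan32 lie next to each other on chromosome 7, with 1 annotated gene and no protein-coding gene between them (RefSeq, GRCm38.p6). CD81 is a widely expressed tetraspanin known as an entry receptor for hepatitis C virus, and Tspan32 encodes a haematopoietic tetraspanin that acts in platelets. Cd81 read -0.86, -0.96 and -0.45 in GMP, -0.65, -0.44 and -0.48 in CD27+ CMP, 0.49, 0.44 and 0.53 in MEP and 0.47, 0.76 and 0.44 in CD27- CMP. Tspan32 read -0.52, -0.19 and -0.07 in GMP, -0.05, -0.01 and -0.12 in CD27+ CMP, 0.32, 0.01 and 0.47 in MEP and 1.06, 1.01 and 0.28 in CD27- CMP. For both genes the MEP and CD27- CMP arrays lay above the GMP and CD27+ CMP arrays, for Tspan32 by a narrow margin. The log2 differences of Cd81 were -1.08 (SE 0.13) between the CMP fractions and -1.24 (SE 0.13) between GMP and MEP. Those of Tspan32 were -0.84 (SE 0.21) and -0.53 (SE 0.21), and its second probe set gave -0.67 (SE 0.09) and -0.46 (SE 0.09).

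Cd9, whose protein is abundant on platelets and needed on the egg for fusion with sperm, had another order. It read 0.47, 0.41 and 0.31 in GMP, 0.07, 0.29 and -0.07 in CD27+ CMP, -0.83, -0.89 and -1.12 in MEP and 0.60, -0.77 and -0.77 in CD27- CMP. GMP stood above CD27+ CMP and MEP below CD27- CMP, both without overlap, while CD27- CMP replicate 1 was the highest of all 12 arrays. The log2 difference was 1.35 (SE 0.32) between GMP and MEP and 0.41 (SE 0.32) between CD27+ and CD27- CMP. This pooled SE includes the uneven CD27- CMP arrays, with an SD of 0.79 against 0.08 in GMP and 0.15 in MEP. The difference between the CMP fractions became 0.87 without CD27- CMP replicate 1 and 0.18 without CD27- CMP replicate 2 or 3, and that of -0.64 between MEP and CD27- CMP became -0.18 without CD27- CMP replicate 1. The 7 measured megakaryocyte markers averaged -1.61 to -0.37 in GMP, -0.77 to -0.15 in CD27+ CMP, 0.02 to 1.23 in MEP and 0.30 to 2.00 in CD27- CMP. Not every marker followed this average. Ppbp was highest in GMP (mean 1.02) and lowest in CD27- CMP (-1.13), and Itga2b was lowest in MEP (-0.53). In GMP against MEP limma called 2 of the 7 lower, beside 10.1% of all genes, and 5 did not pass. The basophil and mast cell markers stood highest in GMP on average. In GMP against MEP limma called 4 of these 6 higher and 1, Gata2, lower, beside 11% and 10.1% of all genes. The part of either list in the Cd9 values was not tested.

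Cd151, the gene of a partner of laminin-binding integrins, had 6 probe sets, and its most variable one overlapped in all 4 comparisons. It read -0.47, -0.27 and 0.00 in GMP, 0.00, 0.47 and 0.08 in CD27+ CMP, -0.08, 0.05 and -0.05 in MEP and 0.60, 0.68 and -0.20 in CD27- CMP. The log2 difference was -0.17 (SE 0.23) between the CMP fractions and -0.22 (SE 0.23) between GMP and MEP. The other 5 probe sets lay between -0.10 and 0.17 in the first comparison and between -0.19 and 0.11 in the second. For 1 of them the arrays did not overlap between CD27+ and CD27- CMP, with -0.03 (SE 0.09), or between GMP and CD27+ CMP, with 0.16 (SE 0.09).

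**Figure D2:**
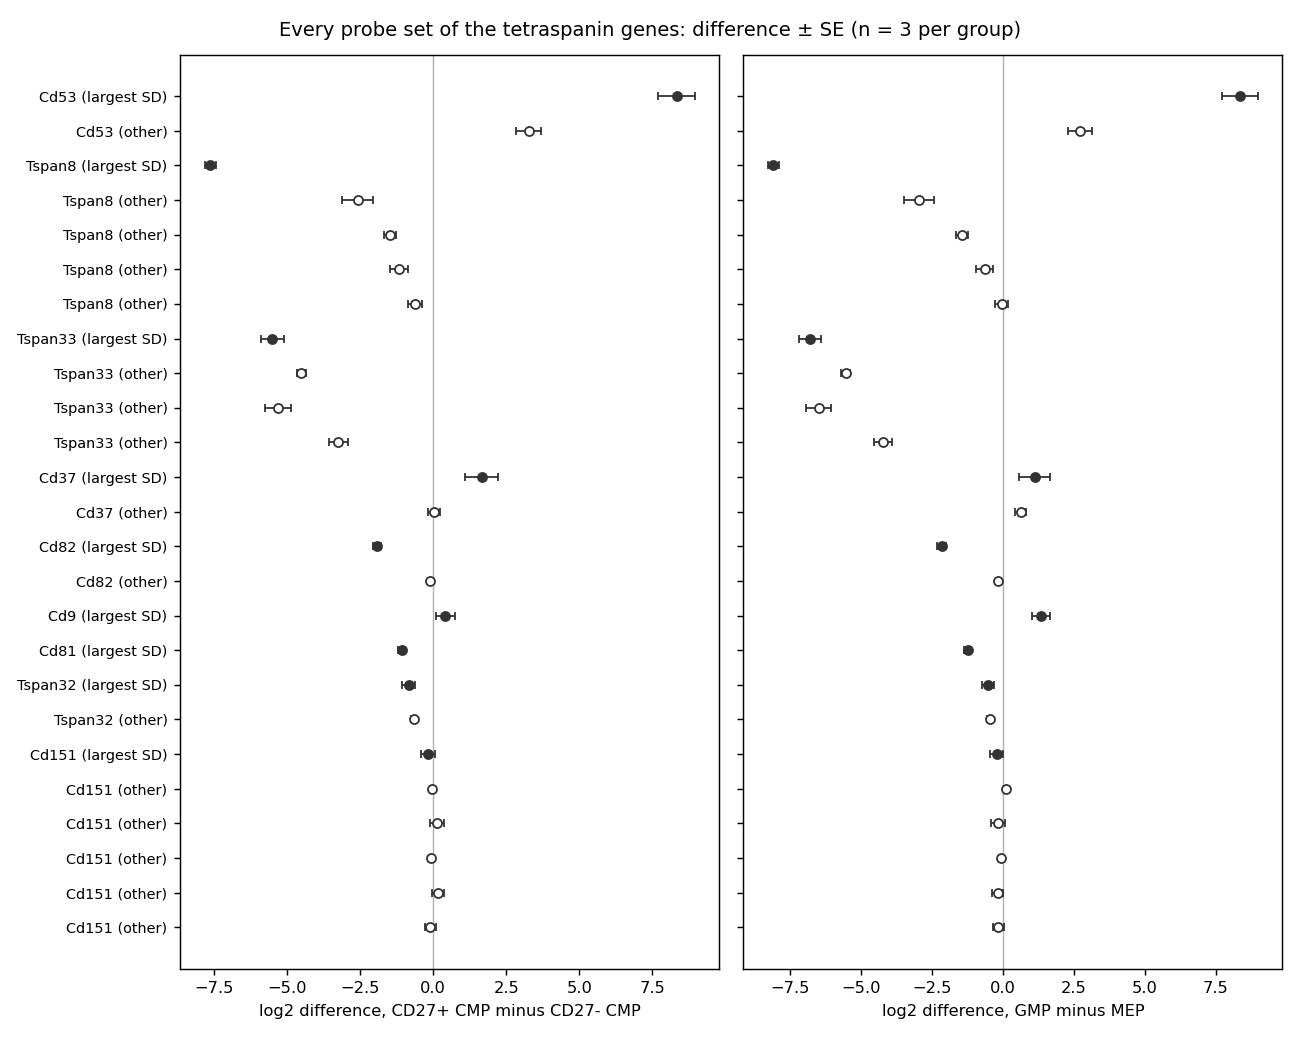
Log2 difference ± SE (n = 3 per group) of each of the 25 probe sets, for CD27+ CMP minus CD27- CMP on the left and GMP minus MEP on the right. The SE pools the spread over all 4 populations. Filled points are the probe set with the largest SD of a gene and open points the others, and positive values are higher in CD27+ CMP or GMP. The 4 Tspan33 probe sets lie close together, from -5.51 to -3.24 on the left, while the 5 of Tspan8 spread from -7.62 to -0.62.

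Genes whose pattern over the 12 arrays was most like that of a tetraspanin were ranked by Pearson's r, given as a description. For Cd53 they were Ly86 (0.997), Traf3ip3 (0.996), Ncf1 (0.996), Emb (0.995) and Ccl9 (0.994), and 553 named genes had an r of at least 0.95. For Tspan8 they were Ampd3 (0.998), Amigo2 (0.998), St3gal5 (0.998), Cd55 (0.997) and Ntn4 (0.997), with 416 such genes. Tspan33 had Septin8 (0.998), Cyth3 (0.996), Xrcc5 (0.996), Lyrm4 (0.996) and Mrpl52 (0.995), with 420. For these 3 genes the arrays fall into 2 clusters, so r mostly reflects the shared split of the populations. Cd37 stood apart, with Anxa6 (0.960) as the only gene that reached 0.95, followed by Ly6e (0.948), Elmo2 (0.946), Stub1 (0.946) and Rhog (0.944).

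The other tetraspanin genes were compared between the populations by limma's moderated test over all 45037 probe sets with Benjamini-Hochberg adjustment, and a gene passed at an adjusted p under 0.05. Of 22 such genes 20 had a probe set, and 8 of these 20 varied by less than 0.5 log2. In CD27+ against CD27- CMP 4 rose and 1 fell, beside 11.3% and 9.31% of all 18193 genes (20.6% in either direction), and 15 did not pass. In GMP against MEP 4 rose and 4 fell, beside 11% and 10.1% of all genes (21% in either direction). In GMP against CD27+ CMP 0 rose and 3 fell (2.25% and 2.27% of all genes, 4.52% in either direction). With a block for the replicate number 2 fell there. In MEP against CD27- CMP 1 rose and 0 fell (0.0165% each of all genes, 0.033% in either direction). There 3 had an unadjusted p under 0.05, a share that was not computed over all genes. The median log2 difference of the 20 genes was -0.03 in the first 2 comparisons, close to that of all genes (-0.03 and -0.04).

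Tspan2, Tspan5, Tspan14 and Tspan3 were the 4 that rose in both CD27+ CMP and GMP. Tspan2, known from oligodendrocytes, read 3.07, 2.86 and 2.43 in GMP, 3.04, 2.68 and 2.26 in CD27+ CMP, -2.81, -3.01 and -2.37 in MEP and -2.34, -2.26 and -3.0 in CD27- CMP. Its log2 difference was 5.19 (SE 0.28, limma adjusted p = 2.08e-06) between CD27+ and CD27- CMP and 5.52 (SE 0.28, limma adjusted p = 1.12e-06) between GMP and MEP. All 3 Tspan2 probe sets passed in both comparisons, the weakest at 1.05 and 1.43. Tspan3 differed by 1.54 (SE 0.08, limma adjusted p = 1.46e-06) and 1.19 (SE 0.08, limma adjusted p = 6.29e-06) in the same comparisons. Tspan3 also fell by 0.38 in GMP against CD27+ CMP (limma adjusted p = 0.0371), a call that was lost under quantile normalization (adjusted p = 0.154), without probe sets that ranged under 0.5 log2 (adjusted p = 0.161), with the replicate block (adjusted p = 0.0581) and without any 1 of 8 arrays. These were MEP replicates 2 and 3, GMP replicates 1, 2 and 3, CD27+ CMP replicates 1 and 3 and CD27- CMP replicate 2, with adjusted p from 0.0546 to 0.147.

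Tspan33 is 1 of 6 TspanC8 genes, and the other 5 were all measured. Tspan5 and Tspan14 ran opposite to Tspan33. Tspan5 read 1.42, 1.72 and 1.68 in GMP, 1.61, 1.60 and 1.43 in CD27+ CMP, -3.50, -1.79 and -1.45 in MEP and -1.42, -1.88 and -3.54 in CD27- CMP. It rose by 3.83 log2 in CD27+ CMP (SE 0.61, limma adjusted p = 0.0021) and by 3.85 in GMP (SE 0.61, limma adjusted p = 0.00186), and a second probe set by 3.23 and 3.41. Tspan14 read 0.99, 0.66 and 1.12 in GMP, 1.29, 1.17 and 1.40 in CD27+ CMP, -1.35, -1.50 and -1.19 in MEP and -1.0, -0.66 and -1.09 in CD27- CMP. Its differences were 2.21 (SE 0.15, limma adjusted p = 7.03e-06) and 2.27 (SE 0.15, limma adjusted p = 4.87e-06). For both genes the GMP and CD27+ CMP arrays lay above all others.

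Tspan15, another TspanC8 gene, was highest in MEP. It read 0.00, -0.50 and -0.02 in GMP, 0.00, -0.15 and -0.02 in CD27+ CMP, 0.98, 0.90 and 1.25 in MEP and 0.12, 0.01 and -0.01 in CD27- CMP. It fell by 1.22 log2 in GMP against MEP (SE 0.14, limma adjusted p = 0.000223). Its difference of 1.00 between MEP and CD27- CMP (SE 0.14, limma adjusted p = 0.0694) did not pass, and passed without GMP replicate 2 (adjusted p = 0.017). Tspan17 and Tspan10 passed in no comparison, with -0.21 and -0.01 between the CMP fractions. The Tspan10 probe set varied by only 0.06 log2 over the 12 arrays, so whether it detects the RNA is unknown. Adam10, the protease these tetraspanins escort, passed in none either. Its log2 differences were 0.32 (SE 0.41, limma adjusted p = 0.701) in CD27+ against CD27- CMP and -0.21 (SE 0.41, limma adjusted p = 0.715) in GMP against MEP, and none of its 4 probe sets passed.

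Tspan13 and Tspan6 were low in GMP. Tspan13 read -3.25, -2.91 and -2.19 in GMP, -0.82, -0.39 and -0.51 in CD27+ CMP, 0.72, 0.73 and 1.20 in MEP and 0.55, 0.39 and 0.85 in CD27- CMP. It fell by 2.21 log2 in GMP against CD27+ CMP (SE 0.26, limma adjusted p = 0.00202) and by 3.66 against MEP (SE 0.26, limma adjusted p = 1.06e-05). It also fell by 1.17 in CD27+ against CD27- CMP (limma adjusted p = 0.0153), a call lost without CD27+ CMP replicate 1 (adjusted p = 0.0617). Tspan6 fell by 2.57 in GMP against CD27+ CMP (SE 0.39, limma adjusted p = 0.00754) and by 3.02 against MEP (SE 0.39, limma adjusted p = 0.000536). Second probe sets of both genes passed in the same comparisons of GMP. Rom1, a tetraspanin of photoreceptor discs, read 0.83, 0.71 and 0.81 in MEP, against 0.05, 0.04 and 0.02 in CD27- CMP. It was 1 of the 6 genes of the whole array that passed in MEP against CD27- CMP (log2 0.75, SE 0.04, limma adjusted p = 0.000677), and it also fell by 0.85 in GMP against MEP. The call between MEP and CD27- CMP was lost when probe sets with a range under 0.5 log2 were left out (adjusted p = 0.0585).

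**Figure D3:**
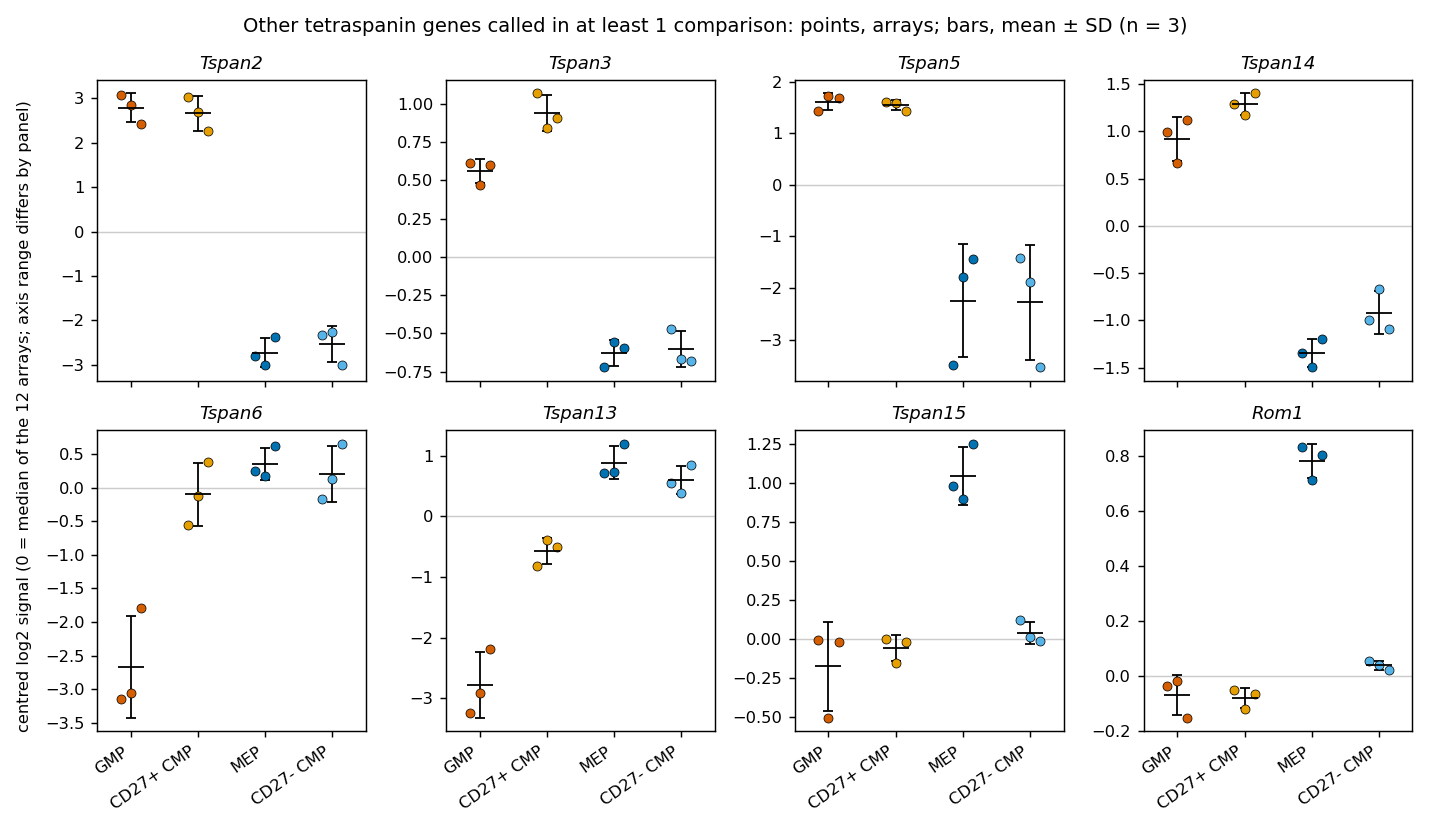
Centred log2 signal (0 is the median of the 12 arrays) of the 8 other tetraspanin genes that passed in at least 1 comparison, in GMP, CD27+ CMP, MEP and CD27- CMP. Points are arrays and bars give the mean ± SD (n = 3), with a separate axis range in each panel. Tspan2, Tspan3, Tspan5 and Tspan14 are high in GMP and CD27+ CMP, Tspan6 and Tspan13 are low in GMP, and Tspan15 and Rom1 are high in MEP.

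**Figure D4:**
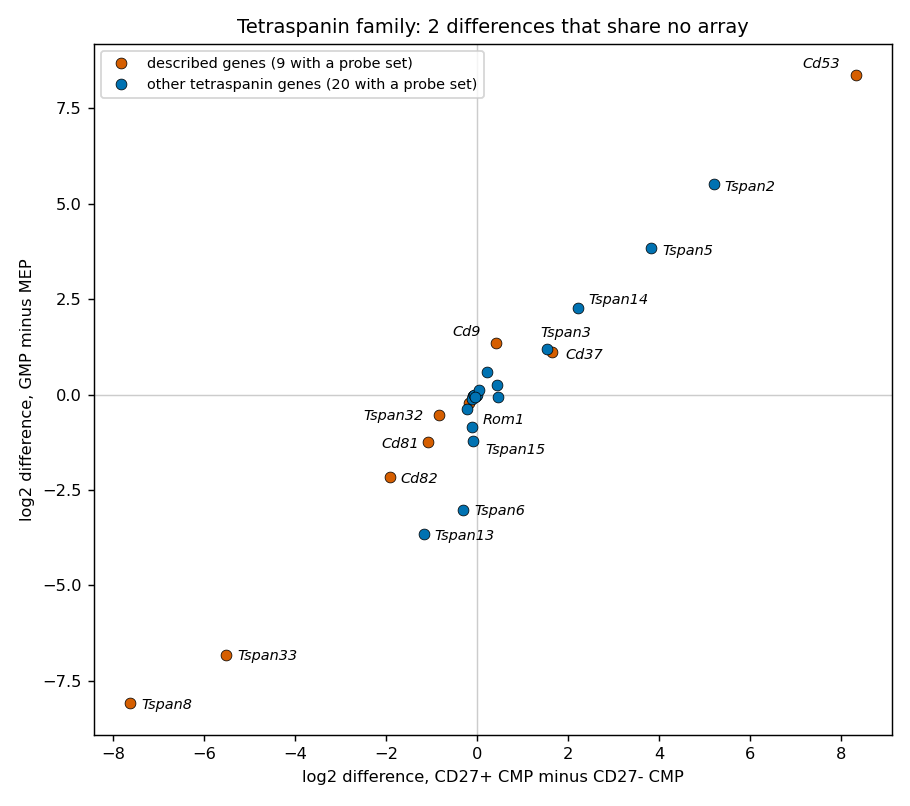
Log2 difference of GMP minus MEP (vertical) against that of CD27+ CMP minus CD27- CMP (horizontal) for the 29 measured tetraspanin genes, each by its most variable probe set. Orange points are the 9 described genes and blue points the other 20, and the axes share no array. Cd53 (8.32 and 8.37) and Tspan8 (-7.62 and -8.09) lie at the ends, and Tspan6 and Tspan13 lie further from 0 on the vertical axis (-3.02 and -3.66) than on the horizontal one (-0.30 and -1.17).

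Partner genes of tetraspanins were tested in the same fit, from a list of 24 of which 23 were measured. In CD27+ against CD27- CMP 7 rose and 2 fell, beside 11.3% and 9.31% of all genes, and in GMP against MEP 7 rose and 2 fell, beside 11% and 10.1%. With the replicate block 6 rose and 2 fell in GMP against MEP. In GMP against CD27+ CMP 1 rose and 1 fell, beside 2.25% and 2.27% of all genes. In MEP against CD27- CMP limma called 0, beside 0.033% of all genes in either direction. There 4 had an unadjusted p under 0.05, a share that was not computed over all genes. The median log2 difference of the list was 0.16 between the CMP fractions and -0.03 between GMP and MEP, beside -0.03 and -0.04 for all genes. Clec7a, the gene of the fungal receptor dectin-1 that CD37 binds, rose by 5.43 in CD27+ CMP (SE 0.36, limma adjusted p = 7.81e-06) and by 6.69 in GMP (SE 0.36, limma adjusted p = 1.68e-06). Icam1, an adhesion molecule, rose by 5.26 and 4.44, the interferon-induced Ifitm1 by 3.80 and 3.17 and Ifitm3 by 2.05 and 1.48, each with a limma adjusted p of 0.0141 or lower. The Ifitm3 call in GMP against MEP was lost without MEP replicate 1 (adjusted p = 0.055) or 2 (adjusted p = 0.0579) and with array weights (adjusted p = 0.0526). Itga6, the integrin alpha chain that CD151 binds, rose by 0.76 and 1.66 (limma adjusted p = 0.00306 and 1.74e-05).

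Mmp14, a membrane-bound matrix protease, had the largest fall among the partners, with a log2 difference of -6.13 in CD27+ against CD27- CMP (SE 0.43, limma adjusted p = 1.12e-05) and -5.54 in GMP against MEP (SE 0.43, limma adjusted p = 1.87e-05). All 3 Mmp14 probe sets passed in both. Cd36, a scavenger receptor, fell by 2.54 and 2.95 (limma adjusted p = 0.00406 and 0.00148), while its other 2 probe sets did not pass. Adgrg1, the gene of an adhesion receptor that binds CD81, was highest in CD27+ CMP. It rose by 1.97 against CD27- CMP (limma adjusted p = 0.00279) and fell by 2.17 in GMP against CD27+ CMP (limma adjusted p = 0.00724). Vcam1, an adhesion molecule that binds integrins, was high in GMP, by 5.10 against MEP (limma adjusted p = 6.98e-05) and 4.89 against CD27+ CMP (limma adjusted p = 0.00075), with its other 2 probe sets not passing against MEP. Epcam, an epithelial adhesion molecule, rose by 1.14 in GMP against MEP (limma adjusted p = 0.0257), a call lost under quantile normalization (adjusted p = 0.0747) with the replicate block (adjusted p = 0.0594) and with array weights (0.62, adjusted p = 0.211). It was also lost without GMP replicate 2 or 3 or any 1 MEP array, with adjusted p from 0.0681 to 0.0922. The other Epcam probe set did not pass in GMP against MEP (-0.04, limma adjusted p = 0.357).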

How the data were processed

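The authors deposited log2 values of 45037 probe sets on 12 arrays, for which the submitters' processing notes name GCRMA. Its version, the log base and the centring step are not stated in the sources. The scale was taken as log2, as GCRMA returns it, and every probe set has a median within 5e-07 of 0. Since GCRMA pulls dim probe sets to a floor, the size of a difference is uncertain where 1 group lies there. Exactly 1 symbol was annotated to 34945 probe sets (18193 genes).

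All arrays entered a single limma 3.58.1 fit (R 4.3.3), with 1 mean per population, 4 contrasts, default empirical Bayes moderation, two-sided tests, Benjamini-Hochberg adjustment over all probe sets and a threshold of 0.05. A gene was read from its probe set with the largest SD over the 12 arrays. No filter on low values was applied. The steps were tested on simulated data. The number of arrays limits the precision, with a median SE of 0.0904 log2 over all probe sets and a 90th percentile of 0.326. The most variable probe sets of the described genes had larger SEs than this median, from 0.13 for Cd81 to 0.63 for Cd53.

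Deviations of same-numbered arrays correlated above 0.1 in all 3 pairs of GMP with MEP (0.275 to 0.576) and of GMP with CD27+ CMP (0.226 to 0.572), so the numbers were taken to pair these arrays, from the data and not the labels. The main fit did not use this pairing, so its errors and p-values ignore it. Results with a replicate block are given at the end.

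Members and lists were chosen with earlier results of these data known. Named were all members, other tetraspanins that passed, the 10 partners with the largest called difference, Adam10, and 5 genes most like each of the 4 widest-ranging members. Alternatives were quantile normalization, median centring, probe set means, a range filter, array weights, robust moderation, a replicate block and leaving out each array.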

Additional observations from a re-analysis of the deposited data

How the results depend on the processing

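The 36 differences of the described genes were recomputed under 19 alternatives. Of 684 values, 658 moved by at most 1 SD of the replicates, 25 moved by more and kept their sign, and Tspan8 in MEP minus CD27- CMP moved by more and changed sign, to -0.0709 with the mean of its probe sets. Many of the 684 could not move. Leaving out an array of a population outside the comparison does not change the difference. Nor do robust moderation, the range filter or the replicate block. The count of 658 therefore overstates how little the values depend on the processing. Of the 658, 14 changed sign, all in GMP minus CD27+ CMP or MEP minus CD27- CMP. Cd37 in MEP minus CD27- CMP was 0.33 without MEP replicate 1 and 0.29 without CD27- CMP replicate 1, against -0.11. Averaging probe sets shrank Tspan8 to -2.69 between the CMP fractions and -2.64 between GMP and MEP, Cd53 to 5.55 between GMP and MEP, Cd37 to 0.84 between the CMP fractions (2.44 with array weights), and Cd82 to -1.01 and -1.16. Of 1520 values of tested genes, many of which likewise could not move, 36 changed sign, none of which passed the test under either setting.

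With array weights, 10458 genes passed in CD27+ against CD27- CMP (3385 higher and 7073 lower, against 2063 and 1693), 3814 in GMP against CD27+ CMP and 63 in MEP against CD27- CMP. Other tetraspanins that passed were then 12, 6 and 2, and partners 15 in the first and 7 in the second. With the range filter, partners were 4 in GMP against CD27+ CMP, and in MEP against CD27- CMP 13 genes and 0 other tetraspanins passed. The cause was not tested.

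Leaving out 1 array gave 3120 to 4578 genes in CD27+ against CD27- CMP, 3130 to 4170 in GMP against MEP, 546 (without GMP replicate 2) to 834 in GMP against CD27+ CMP and 6 to 59 in MEP against CD27- CMP. The last count, 6 with all arrays, was 26 and 31 without MEP replicate 1 and 3, and 24, 12 and 59 without CD27- CMP replicate 1, 2 and 3. Other tetraspanins ranged over 5 to 6, 8 to 9, 2 to 3 and 1 to 2, and partners over 8 to 11, 7 to 9, 2 to 3 and 0 to 0, in the same order of comparisons.

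With the replicate block, other tetraspanins were 5, 8, 2 and 1, against 5, 8, 3 and 1 without it. Among the other tetraspanin and partner genes named, the block changed only the calls of Tspan3 in GMP against CD27+ CMP and Epcam in GMP against MEP. Calls of the marker genes were not compared with and without the block. For CD27+ against CD27- CMP and MEP against CD27- CMP, same-numbered arrays correlated from -0.274 to 0.138 and from -0.302 to 0.003. Of the 3 pairs of the CMP fractions 1 was above 0.1, and there the numbers were not taken to pair the arrays. Arrays with different numbers correlated up to 0.451 (CD27+ CMP replicate 2 with CD27- CMP replicate 1). A pairing under another numbering was not tested.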
